A study of Mus musculus with 23 samples.

Results

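How ERF shapes the answer of mouse embryonic stem cells to a differentiation medium was measured in 11 of the 23 RNA-seq libraries of the study, those in which RAS was present. All 11 came from the Raslox/lox line, which per the labels lacks H-Ras and N-Ras, carries loxP sites at its remaining RAS gene and holds a tamoxifen-inducible Cre recombinase under the Ubiq promoter (Ubiq-CreERT2). None of these 11 had received 4-hydroxytamoxifen, so the floxed gene was still there. The cells were ERF wild type or ERF knockout, and each was kept in 2iL or moved to FA for 48 hours. The medium 2iL is N2B27 with the MEK inhibitor PD0325901, the GSK3 inhibitor CHIR99021 and LIF, and FA is N2B27 with 1% knockout serum replacement, 12 ng/ml FGF2 and 20 ng/ml Activin A on fibronectin. There were 3 libraries of ERF wild type in 2iL, 2 of ERF wild type in FA, 3 of ERF knockout in 2iL and 3 of ERF knockout in FA. The labels do not give the number of ERF knockout clones, and they do not say that replicates were separate cultures, so the p-values measure the spread between these libraries.

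ERF is a repressor of the ETS family of transcription factors. When RAS activates the kinases MEK and ERK, ERK phosphorylates ERF, which then leaves the nucleus and no longer represses. In 2iL the MEK inhibitor keeps ERK activity low and the cells stay in the naive state, while FGF2 in FA activates the pathway and, with Activin A, moves the cells toward an epiblast-like state. The comparison therefore asks whether the FA change differs between cells with and without ERF. The measure is the interaction, the log2 FA change in ERF knockout minus the log2 FA change in ERF wild type. A positive interaction means that a gene fell less, or rose more, in the knockout, and a negative one that it rose less, or fell more.

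Total counts were 17.2 to 29.9 M in the 11 libraries, of which 21.7 to 26.6% fell on the predicted gene Gm26917. Levels are given as CPM, counts scaled to a common library size, after TMM scaling. The stem cell genes Pou5f1 (326 to 603 CPM), Sox2 (63 to 288 CPM) and Sall4 (177 to 318 CPM) were present in every library. Erf RNA does not check the knockout label, since the labels do not say which part of the gene was altered. Erf stood at 70.6, 76.4 and 85.7 CPM in ERF wild type 2iL and at 129, 123 and 96.1 CPM in the 2iL libraries labelled ERF knockout, which were the higher. In FA it stood at 69.8 and 56.5 CPM in wild type and at 50.7, 64.8 and 56.9 CPM in knockout, where the ranges overlapped. Its interaction was -0.72 (SE 0.20, adjusted p = 0.0238), under the 2-fold minimum. RNA was also counted for both genes that the labels give as lost, with Hras at 14.3 to 25.6 CPM and Nras at 7.74 to 43.6 CPM over the 11 libraries. The labels do not say which part of either gene is missing, so these reads do not check the loss. Neither was called (Hras interaction -0.39, adjusted p = 0.0926, Nras -0.32, adjusted p = 0.878), and the whole range of Nras lay within the 3 ERF knockout 2iL libraries. In replicate 1 of ERF wild type, genes of chromosome 8 stood above their mean over the libraries of the same medium, by a median of 0.29 in 2iL and 0.27 in FA on the log2 scale. In replicate 1 of ERF knockout, genes of chromosome 11 did so by 0.11 and 0.07. Outside chromosomes 8 and 11 the largest absolute median in any library was 0.0858, so the FA value of chromosome 11 does not stand out. The main counts below are also given without the replicate 1 libraries of either line.

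Of 20372 genes tested, 870 (4.27%) were called for the interaction by edgeR's quasi-likelihood test. A call needed an adjusted p under 0.05 (Benjamini-Hochberg) and at least a 2-fold difference between the 2 FA changes. They split into 453 positive (2.22%) and 417 negative (2.05%) genes, and the median interaction over all tested genes was -0.01. The positive genes were mostly ones that FA lowered in wild type cells, with a median FA change of -1.64 in wild type and 0.13 in knockout. The negative genes were mostly ones that FA raised, with a median FA change of 2.45 in wild type and 0.48 in knockout. Of the positive genes, 213 were called lower in FA in wild type and not called in knockout, 69 were called lower in both lines, 95 were called higher in knockout alone, and 11 were called lower in wild type and higher in knockout. Of the negative genes, 178 were called higher in FA in wild type and not called in knockout, 147 were called higher in both, 44 were called lower in knockout alone, and 5 were called higher in wild type and lower in knockout. Over all tested genes FA was called in 24% in wild type (13.2% higher, 10.8% lower) and in 19.7% in knockout (12.3% higher, 7.46% lower). These FA changes come from the same libraries as the interaction and describe it.

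**Figure D1:**
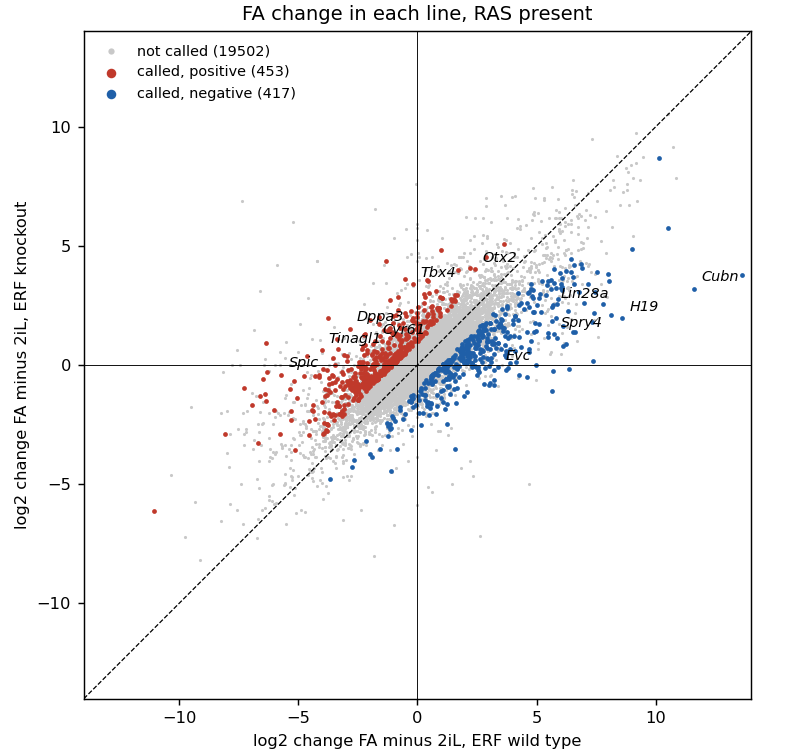
Log2 FA change of each tested gene in ERF wild type (horizontal axis) and ERF knockout (vertical axis); 1 point is 1 gene, red points are the 453 genes called positive, blue the 417 called negative, and the dashed line marks equal changes. Most red genes lie at negative values of the wild type change and most blue genes at positive values, and most of both lie nearer to 0 on the knockout axis.

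The medium in which the lines differed was mostly 2iL. In 734 of the 870 called genes (84.4%) the ERF knockout minus wild type difference was larger in 2iL than in FA, namely in 361 of 453 positive and 373 of 417 negative genes. The positive genes stood lower in knockout cells in 2iL, by a median of -1.28, and at 0.41 in FA. The negative genes stood higher in knockout cells in 2iL, by a median of 1.71, and at -0.16 in FA. Of the positive genes 277 were called for ERF in 2iL alone and 45 in FA alone, and of the negative genes 319 and 21. Over all tested genes, ERF was called in 9.72% in 2iL (5.2% higher and 4.52% lower in knockout) and in 2.36% in FA (1.58% higher, 0.78% lower), where wild type had 2 libraries. The share with the larger difference in 2iL was 86.7% of 677 genes called without both ERF wild type replicate 1 libraries, 84.9% of 676 called without both ERF knockout replicate 1 libraries, and 84.1% of 577 called without ERF wild type FA replicate 1. The number of called genes is thus sensitive to that last library. In all 11 fits that each left out 1 library, 186 positive and 206 negative genes were called, together 45.1% of the 870. A fit with a replicate term within each ERF line gave 689 calls, 66.6% of the 870 kept, and of the genes named below Ccnd1, Cdkn1a, Tnfrsf19, Spred1, Sox3, Pim2, Lefty1, Sox7 and Car4 were not called in it. Of the 64 called genes named below, limma voom did not call 10 (Sp5, Otx2, Gadd45b, Mael, Lefty1, Krt19, Sox7, Foxa2, Aire and Car4). A fit with effective length as an offset did not call Sp5, Ccnd1, Tnfrsf19, Socs3, Gbx2, Krt19, Amn, Sox7, Cdh6 and Foxa2, and a fit of the 11 libraries alone did not call Ccnd1, Mael, Amn and Sox7. A replicate term over all groups lost Sp5, Gpnmb, Ccnd1, Tnfrsf19, Gadd45b, Sox3, Mael, Pim2, Sox7 and Col4a1. The most, 18, lost the call without both ERF wild type replicate 1 libraries: Sp5, Fas, Gsc, Fos, Tfap2c, Cdkn1a, Amotl1, Gadd45b, Spred1, Socs3, Gbx2, Pim2, Krt19, Amn, Sox7, Cdh6, Col4a1 and Foxa2. Without both ERF knockout replicate 1 libraries 8 did, namely Sp5, Ccnd1, Cdkn1a, Gadd45b, Socs3, Gbx2, Sox3 and Mael. For 24 of the 64, leaving out 1 library changed the interaction by over 1.5-fold as an unlogged ratio, as given beside each in log2 or as a bound.

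**Figure D2:**
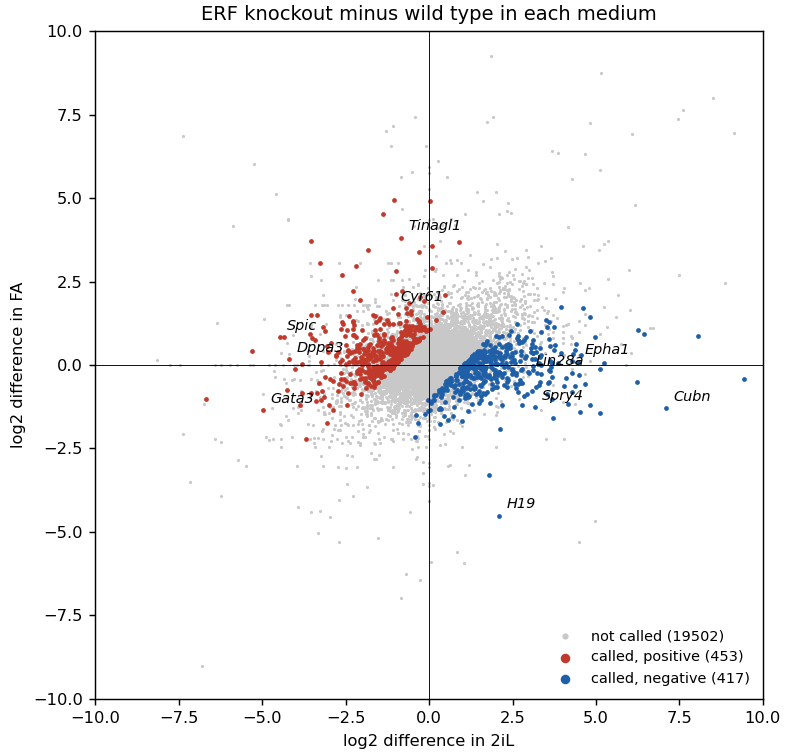
ERF knockout minus wild type difference (log2) of each tested gene in 2iL (horizontal axis) and in FA (vertical axis), with genes called for the interaction in red (positive) and blue (negative). Called genes spread mainly along the horizontal axis, and H19 and Tinagl1 are among the genes displaced along the vertical one.

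The promoters of 4 genes whose values follow are shown because they give the sequence that an ETS factor would meet before the start of genes with large interactions in each direction: Spic of the positive genes, and Lin28a, Dnmt3l and Cubn of the negative ones. Each is the 250 bases before a start in RefSeq on GRCm38.p6 (for Dnmt3l the first listed of 3 starts, for the others the 1 listed), written 5′ to 3′ on the gene's strand, and capitals mark GGAA, the core that ETS factors recognise, or TTCC, the same core on the other strand.
Spic, chr10:88683024-88683273, minus strand: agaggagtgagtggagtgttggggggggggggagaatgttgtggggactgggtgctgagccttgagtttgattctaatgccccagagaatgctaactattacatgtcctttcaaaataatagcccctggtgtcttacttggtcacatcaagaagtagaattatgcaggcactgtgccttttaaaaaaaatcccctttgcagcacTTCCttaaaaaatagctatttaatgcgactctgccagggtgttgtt
Lin28a, chr4:134018817-134019066, minus strand: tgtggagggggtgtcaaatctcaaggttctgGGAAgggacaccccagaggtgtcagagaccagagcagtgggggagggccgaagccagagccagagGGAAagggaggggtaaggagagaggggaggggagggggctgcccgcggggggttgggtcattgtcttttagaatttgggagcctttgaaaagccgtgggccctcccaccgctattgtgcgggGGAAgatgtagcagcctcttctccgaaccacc
Dnmt3l, chr10:78042037-78042286, plus strand: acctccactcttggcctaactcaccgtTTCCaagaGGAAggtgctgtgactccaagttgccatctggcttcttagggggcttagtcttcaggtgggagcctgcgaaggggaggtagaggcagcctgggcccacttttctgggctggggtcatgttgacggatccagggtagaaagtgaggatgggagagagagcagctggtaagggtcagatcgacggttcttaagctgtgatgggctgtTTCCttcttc
Cubn, chr2:13491877-13492126, minus strand: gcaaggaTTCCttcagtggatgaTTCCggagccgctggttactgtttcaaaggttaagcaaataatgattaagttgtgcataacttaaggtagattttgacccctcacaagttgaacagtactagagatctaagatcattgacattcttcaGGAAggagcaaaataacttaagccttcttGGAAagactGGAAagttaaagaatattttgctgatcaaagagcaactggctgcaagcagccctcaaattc
The core occurred once in the Spic window, 3 times in those of Lin28a and Dnmt3l and 5 times in that of Cubn. None of the 4 windows held the longer ETS motif CCGGAAGT on either strand, which contains the core. Among 32851 promoter windows of the same length the core was in 93.4%, against 91.8% of 440 windows of positive genes and 92.6% of 404 windows of negative genes. The longer motif was in 2.88% of all windows and 5.01% of the windows of tested genes, against 0.455% (2 windows) for positive and 1.49% (6 windows) for negative genes. Genes with several starts count once per start, and a match to letters is no measure of binding.

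Among 18 naive pluripotency genes, 2 were called positive (Spic and Dppa3) and 1 negative (Gbx2). The counts of this list and of those that follow stand against 2.22% positive and 2.05% negative calls over all tested genes. The median interaction of the list was 0.28 (0.43 without ERF wild type FA replicate 1 and 0.07 without replicate 2), and its median FA change was -3.37 in wild type and -2.96 in knockout. Dppa3, also known as Stella, protects DNA methylation states in oocyte and early embryo. It stood at 28.6, 30.4 and 27.8 CPM in wild type 2iL and at 3.78 and 4.31 CPM in wild type FA. In knockout cells it stood at 2.4, 1.52 and 0.736 CPM in 2iL and at 4.52, 5.73 and 3.39 CPM in FA. Wild type 2iL was thus the high group, knockout 2iL the low one, and the 2 FA groups overlapped. Its log2 FA change was -2.84 in wild type and 1.53 in knockout (interaction 4.37, SE 0.39, adjusted p = 9.8e-07).

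Spic, an ETS family factor of the naive state, stood at 18, 12 and 12.6 CPM in wild type 2iL and between 0.216 and 0.946 CPM in the other 8 libraries. Its interaction of 5.30 (SE 0.78, adjusted p = 0.000155) was the largest in the positive direction among genes named by rank, and it was called in each of the 11 fits with a library left out. Other core naive genes were not called. Nanog, a central factor of the naive network, had an interaction of 0.91 (adjusted p = 0.0127), under the 2-fold minimum. Esrrb (-0.50, adjusted p = 0.133), Klf4 (0.38, adjusted p = 0.315), Tfcp2l1 (0.55, adjusted p = 0.154) and Zfp42 (0.24, adjusted p = 0.66), belong to the same network. Gbx2, a homeobox factor, stood at 32.3 and 28.5 CPM in wild type FA and at 11.6 to 15.8 CPM in knockout FA. Its interaction of -1.16 (adjusted p = 0.042) was called in 1 of the 11 fits with a library left out, and over the 10 fits without the call it ran from -0.99 to -1.24.

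The largest positive interactions otherwise fell on genes high in wild type 2iL. Fbln5, a matrix protein of elastic fibres, stood at 16.9, 14.8 and 11.9 CPM there and between 0.18 and 2.33 CPM elsewhere (interaction 4.32, SE 0.75, adjusted p = 0.000802, and 3.66 without ERF wild type FA replicate 1 and 5.27 without replicate 2). Aspa, aspartoacylase, stood at 13.7, 17.1 and 17.7 CPM there, at 1.73 to 2.0 CPM in knockout 2iL and at 0.142 to 0.757 CPM in FA (interaction 4.11, SE 0.62, adjusted p = 0.000165, and 4.88 without ERF wild type FA replicate 1). Ceacam10, Wnt7b, a Wnt ligand, and Gpnmb, a membrane glycoprotein, had interactions of 3.63, 3.59 and 3.52, the last of them 2.64 without ERF wild type 2iL replicate 1. Wild type 2iL was the highest group for each of them.

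Tbx4 and Gata3 differed in that knockout cells raised them in FA from a low 2iL level. Tbx4, a T-box factor of limb and allantois, stood at 0.673, 0.704 and 0.578 CPM in knockout 2iL and at 6.89, 7.86 and 6.14 CPM in knockout FA, while wild type cells held it at 3.27 to 6.55 CPM in both media. Its interaction was 3.59 (SE 0.38, adjusted p = 3.1e-06). Gata3, a trophoblast factor, stood at 0.0541 to 0.288 CPM in knockout 2iL and at 0.448, 0.652 and 0.797 CPM in knockout FA, below every wild type library (interaction 3.63, SE 0.47, adjusted p = 2.49e-05, and 4.53 without ERF knockout 2iL replicate 1). Otx2, a transcription factor that drives exit from the naive state, followed the same course among the 20 formative and primed genes. It stood at 4.66, 5.36 and 4.46 CPM in wild type 2iL and at 1.11, 1.35 and 1.1 CPM in knockout 2iL. In FA it stood at 21.3 and 30.1 CPM in wild type and at 20.9, 19.6 and 17.9 CPM in knockout, so that the lines stood close together in FA and apart in 2iL, without overlap in either medium. The interaction was 1.62 (SE 0.34, adjusted p = 0.00338), and limma voom did not call it.

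The formative and primed list as a whole leaned the other way from Otx2, its 1 gene called positive. It had 3 negative calls (Lin28b, Pim2 and Sox3), 14 of 20 estimates were negative and the median was -0.41. Lin28b, an RNA-binding protein that blocks let-7 maturation, stood at 2.7, 2.98 and 2.69 CPM in wild type 2iL and at 13.9, 14.3 and 11.7 CPM in knockout 2iL. In FA it reached 37.7 and 28.1 CPM in wild type and 40.1, 31 and 45.4 CPM in knockout, with overlapping ranges (interaction -2.02, SE 0.24, adjusted p = 1.31e-05). Pim2, a kinase, instead matched in 2iL (6.36 to 9.28 CPM over both lines) and was lower in knockout FA, at 21.2, 10.5 and 21.3 CPM against 49.3 and 48.3 CPM. Its interaction of -1.35 (adjusted p = 0.0123) lost the call without ERF wild type FA replicate 1 (-1.32, adjusted p = 0.0542). Sox3, a neural and epiblast factor, had -1.20 (adjusted p = 0.0152) and lost the call without ERF knockout 2iL replicate 2 (-0.92, adjusted p = 0.0767). Fgf5 (-0.75, adjusted p = 0.957), Pou3f1 (-0.33, adjusted p = 0.821) and Dnmt3b (-0.32, adjusted p = 0.73), widely used markers of the formative state, were not called.

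Of 10 general pluripotency genes, 3 were called, all of them negative (against 2.05% of all tested genes), and 9 estimates were negative (median -0.50). Lin28a, the paralog of Lin28b, gave the largest value. Its promoter is among those printed above. It stood at 3.71, 7.74 and 8.45 CPM in wild type 2iL and at 43.6, 52.5 and 55.1 CPM in knockout 2iL. In FA it stood at 305 and 367 CPM in wild type and at 289, 292 and 289 CPM in knockout. The 2iL groups stood far apart and the FA groups close together, which gave an interaction of -3.17 (SE 0.49, adjusted p = 0.000596). Utf1, a chromatin factor of pluripotent cells, showed the same order at smaller size, with 34.8 to 35.3 CPM in wild type 2iL, 79.9 to 86.9 CPM in knockout 2iL, and 214 to 268 CPM over both lines in FA (interaction -1.30, SE 0.16, adjusted p = 1.56e-05). Tdgf1, a Nodal co-receptor, had -1.07 (adjusted p = 0.000974) and fell under the 2-fold minimum without any 1 of 3 libraries, ERF knockout 2iL replicate 1 (-0.996), ERF wild type FA replicate 1 (-0.96) or ERF knockout FA replicate 2 (-0.97). Pou5f1 (-0.10, adjusted p = 0.688) and Sox2 (0.00, adjusted p = 1) were not called.

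**Figure D3:**
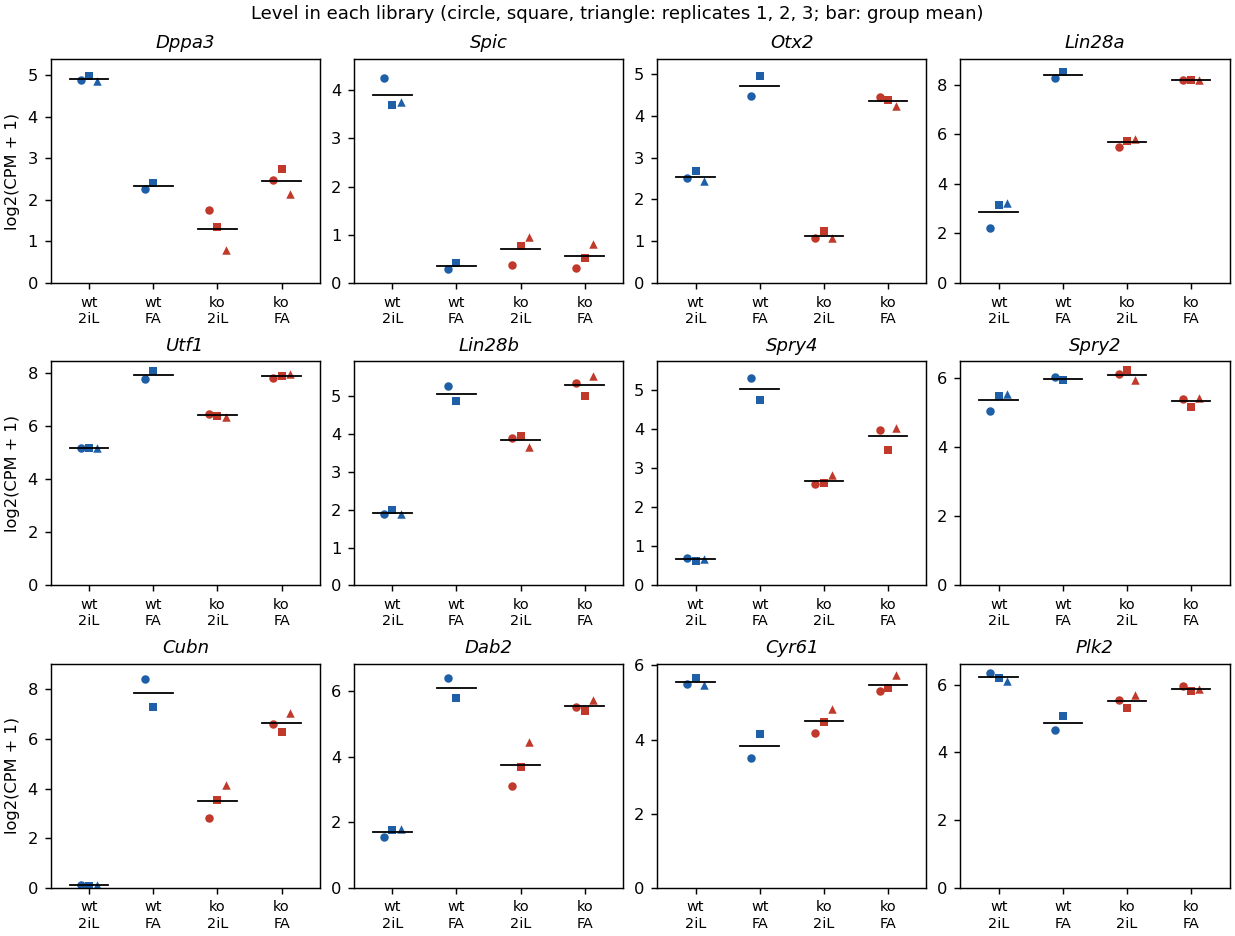
Level of 12 genes in each of the 11 libraries as log2(CPM + 1), by group (wt, ERF wild type; ko, ERF knockout); symbols give the replicate number and bars the group mean. Dppa3, Lin28a, Utf1 and Lin28b differ between the lines in 2iL and lie close together in FA, while Cyr61 and Plk2 differ in both media in opposite directions.

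Among 8 genes of DNA methylation, 1 was called. Dnmt3l, the cofactor of the de novo methyltransferases, stood at 3.36, 3.99 and 4.37 CPM in wild type 2iL and at 14.3, 14.2 and 19.5 CPM in knockout 2iL. In FA it rose to 276 and 394 CPM in wild type and to 250, 247 and 214 CPM in knockout. Knockout cells were thus the higher in 2iL and the lower in FA (interaction -2.55, SE 0.42, adjusted p = 0.000903). All 8 estimates were negative, with a median of -0.39 (-0.26 without ERF wild type FA replicate 1). The 12 germline genes that DNA methylation is known to silence had 2 positive calls, Tex101 and Dazl, and 1 negative, Mael. Their median of 0.57 was 0.22 without ERF wild type FA replicate 1, 0.97 without replicate 2 and 0.03 without both ERF wild type replicate 1 libraries. Dazl, an RNA-binding protein of germ cells, fell in FA from 91.4 to 103 CPM to 9.21 and 12.8 CPM in wild type, and from 31.4 to 54.4 CPM to 11.3 to 20.1 CPM in knockout (interaction 1.84, SE 0.32, adjusted p = 0.00113). Tex101, a germ cell surface protein, stood at or under 2.6 CPM in every library (interaction 3.91, SE 0.72, adjusted p = 0.00104). Its wild type FA libraries stood at 0.252 and 0.852 CPM, and the interaction was 3.24 without replicate 1 and 4.97 without replicate 2 of that group. The call of Mael, a piRNA pathway protein, ended in 6 of the 11 fits, and its interaction of -1.26 was -0.52 without ERF wild type FA replicate 2.

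Of 23 tested genes of the ERK response, 3 were called negative (Spry4, Spry2 and Spred1) and 2 positive (Fos and Ccnd1), with a median of -0.15 that was 0.02 without ERF wild type FA replicate 1. Sprouty and Spred proteins are feedback inhibitors of receptor and RAS signalling. Spry4 stood at 0.63, 0.536 and 0.604 CPM in wild type 2iL and at 5.05, 5.14 and 6.1 CPM in knockout 2iL. In FA it reached 38.3 and 25.6 CPM in wild type and 14.8, 9.99 and 15.4 CPM in knockout. Spry4 was higher without ERF in 2iL and lower without ERF in FA, with no overlap in either medium, and its interaction was -4.43 (SE 0.35, adjusted p = 4.64e-08). Spry2 crossed in the same way at smaller size, with 32.3, 43.8 and 46 CPM in wild type 2iL, 68.2, 74 and 61.1 CPM in knockout 2iL, 64.9 and 60.5 CPM in wild type FA and 41.4, 34.7 and 42 CPM in knockout FA. Its FA change was 0.63 in wild type and -0.78 in knockout (interaction -1.41, SE 0.20, adjusted p = 0.0001). Spred1 rose in FA by 2.00 in wild type and 0.99 in knockout, and its interaction of -1.02 (adjusted p = 1.57e-05) fell under the 2-fold minimum in 4 of the 11 fits, the smallest being -0.90 without ERF wild type FA replicate 1.

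Fos, an immediate early factor, stood at 1.9 to 2.7 CPM in wild type 2iL, 0.504 and 0.474 CPM in wild type FA, 2.58 to 3.79 CPM in knockout 2iL and 1.87 to 2.4 CPM in knockout FA. Wild type FA was the low group, and the interaction was 1.63 (SE 0.38, adjusted p = 0.00677). It was 1.53 and not called without both ERF wild type replicate 1 libraries (adjusted p = 0.0639). The call of Ccnd1, cyclin D1, ended in 7 of the 11 fits, and its interaction of 1.59 was 2.45 without ERF wild type FA replicate 1 and 1.07 without replicate 2. The wild type FA libraries stood at 69.6 and 27 CPM. Dusp6, an ERK phosphatase (-0.84, adjusted p = 0.11), Dusp4 (-1.02, adjusted p = 0.239) and Etv5, an ETS activator (-0.26, adjusted p = 0.359), were not called. None of the 14 tested genes in a list of ETS repressors and related ETS genes, which does not hold Spic, was called by edgeR, DESeq2 or limma voom, 7 had an unadjusted p under 0.05 by edgeR, and the list's median was 0.05 (-0.02 without ERF wild type FA replicate 1). Elf3, an epithelial ETS factor, had the largest positive value there, at 0.87 (adjusted p = 0.00773, under the 2-fold minimum), and Fli1 was at the floor of 3 counts per library in 2 groups, which leaves no fold to give.

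Genes of extraembryonic endoderm gave the largest median among the 18 lists. Of 13 primitive endoderm markers, 7 were called, all of them negative (53.8%, against 2.05% of all tested genes), 12 estimates were negative and the median was -2.05. Gata6 (-0.34, adjusted p = 0.69), Gata4 (-1.03, adjusted p = 0.242) and Lama1 (-0.82, adjusted p = 0.405) were not called. Neither were Col4a2 (-2.05, adjusted p = 0.0687), Srgn (-1.42, adjusted p = 0.179) and Sparc (0.17, adjusted p = 0.793). Over all 13 markers the median ERF difference was 2.33 in 2iL and 0.00 in FA, and the median FA change was 2.44 in wild type and 0.61 in knockout. Dab2, an endocytic adaptor of primitive endoderm, stood at 1.96, 2.38 and 2.46 CPM in wild type 2iL, 83.4 and 54.5 CPM in wild type FA, 7.59, 11.9 and 21 CPM in knockout 2iL and 45.3, 40.8 and 52.4 CPM in knockout FA. Its groups did not overlap, and its interaction was -3.16 (SE 0.40, adjusted p = 7.04e-05). Cubn, the receptor cubilin of visceral endoderm, whose promoter is printed above, stood at 0.07, 0.0595 and 0.0929 CPM in wild type 2iL and at 340 and 157 CPM in wild type FA. In knockout cells it stood at 5.96, 10.7 and 16.5 CPM in 2iL and at 95, 76.6 and 133 CPM in FA. Since wild type 2iL was at the floor of 3 counts per library, the FA rise was at least 192-fold smaller in knockout (adjusted p = 1.57e-05), or at least 121-fold without ERF wild type FA replicate 1.

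Pdgfra, the receptor that marks primitive endoderm, stood at 1.73 to 2.17 CPM in wild type 2iL and at 5.81, 8.55 and 15.3 CPM in knockout 2iL, and at 9.8 to 23.5 CPM over both lines in FA (interaction -2.98, SE 0.56, adjusted p = 0.00203, and -2.20 without ERF wild type FA replicate 1). Lamb1, a laminin chain of the endoderm's basement membrane, rose in wild type from 45.2 to 45.4 CPM in 2iL to 249 and 204 CPM in FA, while knockout cells held 160, 222 and 340 CPM in 2iL and 312 to 385 CPM in FA (interaction -1.83, SE 0.33, adjusted p = 0.00175). The call of Col4a1, a collagen IV chain on chromosome 8, ended without ERF wild type FA replicate 1 (-3.04 in all libraries, -2.39 without it, adjusted p = 0.0703). Sox7 (-2.44) and Amn (-2.40), a factor and a cubilin partner of the same lineage, kept the call in 2 and 4 of the 11 fits. Without ERF knockout 2iL replicate 3 they were -1.66 and -1.80, neither called, and Amn was -3.35 without ERF wild type 2iL replicate 1. The calls in this list numbered 4 without both ERF wild type replicate 1 libraries (median -1.77), 4 without ERF wild type FA replicate 1 alone (median -1.67) and 7 without both ERF knockout replicate 1 libraries (median -2.23).

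These markers moved together between replicates as well as between groups. Their summed level was 332 to 383 CPM in wild type 2iL, 1340 and 822 CPM in wild type FA, 835, 1240 and 1970 CPM in knockout 2iL and 1200 to 1660 CPM in knockout FA. All 13 were lowest in replicate 1 and highest in replicate 3 of knockout 2iL, and 12 of 13 were higher in replicate 1 than in replicate 2 of wild type FA. That order of the knockout 2iL libraries was found in 18.5% of all tested genes, 32.4% of the 417 negative and 15% of the 453 positive genes. Of the 73 named genes 27 had that order, 7 of them from the list. Of the 20 others, 8 stood over 2-fold higher in replicate 3 than in replicate 1 (Spic, Tinagl1, Gpnmb, H19, Clic5, Krt19, Cdh6 and Foxa2), and 12 less so (Cyr61, Ctgf, Evc, Trh, Lin28a, Spry4, Spred1, Pmaip1, Elf3, Cldn3, Zeb2 and Col1a2). Lin28b, Utf1, Dnmt3l, Epha1 and Dppa3 did not have it. In bulk RNA, more cells of a type and more RNA per cell cannot be told apart, and the part of such cells in the interaction was not tested. For other cell types, the summed markers were 173 to 187, 46.6 to 48.4, 106 to 122 and 47 to 56.9 CPM for 12 trophoblast genes in the order wild type 2iL, wild type FA, knockout 2iL and knockout FA. For 6 early neural genes they were 37.2 to 74, 63.3 to 76.2, 28.2 to 34.2 and 53.4 to 67.8 CPM, and for 5 fibroblast genes 19.3 to 21.4, 9.89 to 10.7, 13.9 to 16.4 and 8.33 to 11.6 CPM. Col3a1, Postn and Lum, which define fibroblasts, were too low to be tested.

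**Figure D4:**
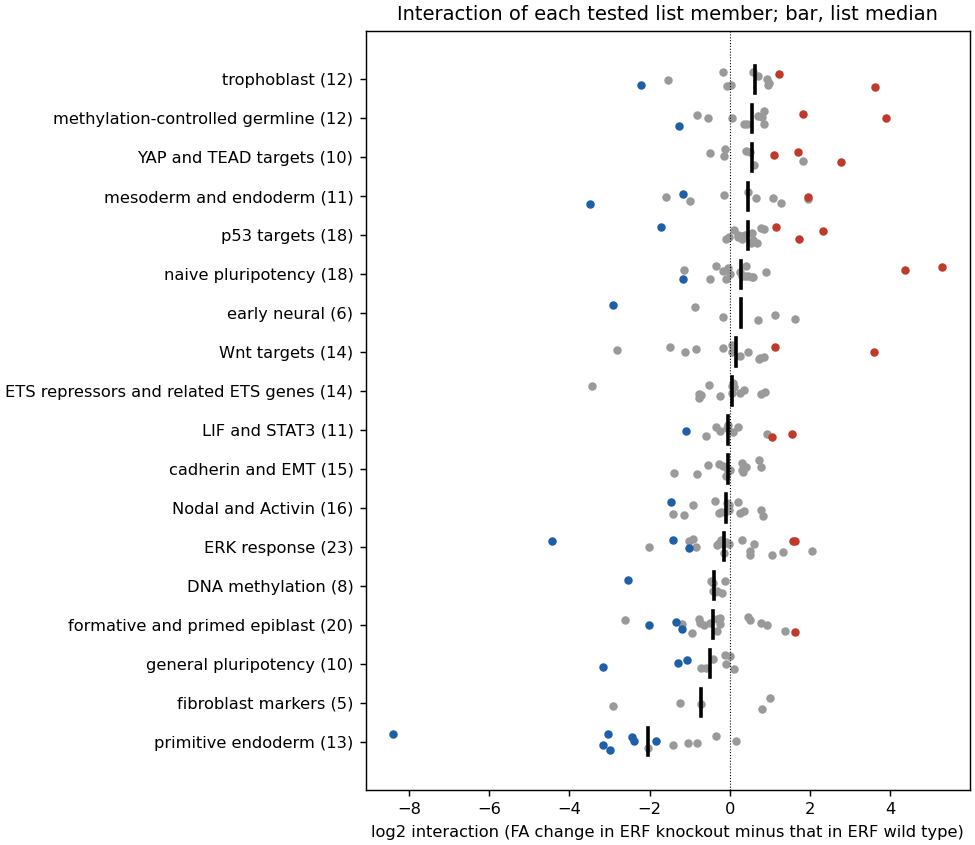
Log2 interaction of every tested member of 18 gene lists (number tested in brackets); red points are called positive, blue called negative, grey not called, bars mark list medians and vertical scatter is only for legibility. The primitive endoderm list stands farthest to the left, with a median of -2.05, and most other medians lie between -0.5 and 0.6.

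YAP and TEAD, the effectors that Hippo signalling holds back, activate Cyr61 and Ctgf, which code for secreted matrix proteins. Of 10 YAP and TEAD targets 3 were called, all of them positive (Cyr61, Ctgf and Amotl1, against 2.22% of all tested genes), 7 estimates were positive, and the median was 0.56 (0.39 without ERF wild type FA replicate 1 and 1.04 without replicate 2). Cyr61 stood at 44.2, 49.5 and 43.5 CPM in wild type 2iL and at 10.4 and 16.6 CPM in wild type FA, and at 17.2, 21 and 27.2 CPM in knockout 2iL and 38.5, 40.9 and 52.1 CPM in knockout FA. FA thus lowered it with ERF and raised it without (interaction 2.78, SE 0.27, adjusted p = 3.82e-06), and in FA the knockout was the higher by 1.71 (adjusted p = 8.54e-05). Ctgf stood at 40.9 to 48.1 CPM in wild type 2iL, 45.4 and 74.1 CPM in wild type FA, 21.7 to 38.1 CPM in knockout 2iL and 113, 157 and 115 CPM in knockout FA, the highest group (interaction 1.70, SE 0.33, adjusted p = 0.00258). Amotl1, an angiomotin that binds YAP, had an FA change of -1.31 in wild type and -0.21 in knockout, and its interaction of 1.10 became 0.96 without ERF wild type FA replicate 1.

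Of 18 p53 targets 3 were called positive (Fas, Plk2 and Cdkn1a) and 1 negative (Pmaip1), against 2.22% and 2.05% of all tested genes, with 15 positive estimates and a median of 0.46. Plk2, a polo-like kinase, stood at 68.7 to 79.7 CPM in wild type 2iL, 24.5 and 32.9 CPM in wild type FA, 39.1 to 50.9 CPM in knockout 2iL and 55.3 to 61.1 CPM in knockout FA, with no overlap between any groups (interaction 1.73, SE 0.14, adjusted p = 6.19e-08). Pmaip1, which codes for the death protein Noxa, stood at 13.3, 7.2 and 5.62 CPM in wild type 2iL and at 41.3, 47.2 and 48.9 CPM in knockout 2iL, and at 48.5 and 56.4 CPM against 80.2 to 82.8 CPM in FA (interaction -1.72, SE 0.28, adjusted p = 0.000548). Cdkn1a, the inhibitor p21, had 1.15 and lost the call without ERF wild type 2iL replicate 1 (0.996), ERF wild type FA replicate 1 (0.96) or ERF knockout FA replicate 1 (0.98). The p53 calls fell to 1 positive and 1 negative (median 0.22) without both ERF wild type replicate 1 libraries, and to 2 and 1 (median 0.25) without ERF wild type FA replicate 1 alone, while the median was 0.71 without replicate 2 of that group.

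The remaining lists held 0 to 3 calls each. The largest share was 27.3%, in the LIF and STAT3 list and in the mesoderm and endoderm list, against 4.27% of all tested genes. Among 14 Wnt targets Sp5 and Tnfrsf19 were called positive, and Sp5, a Wnt-induced factor at the floor in wild type FA, kept its call in 1 of the 11 fits. Its ratio of FA to 2iL was at least 10.5-fold higher in knockout, or at least 6.76-fold without ERF wild type 2iL replicate 3. Tnfrsf19, a Wnt-induced receptor (1.14), lost its call without ERF wild type FA replicate 2 (0.92, adjusted p = 0.0844). Among 11 LIF and STAT3 genes Bcl3, an NF-kappaB cofactor, had 1.56 (adjusted p = 0.000383) and Gadd45b, a stress gene, 1.05 (adjusted p = 0.032), while Socs3, the feedback inhibitor of STAT3, had -1.08. Gadd45b kept its call in 5 fits and Socs3 in 3. Lefty1, the inhibitor of Nodal, was the 1 call among 16 Nodal and Activin genes. It rose from at most 1.14 CPM in 2iL to 476 and 486 CPM in wild type FA and 344 to 438 CPM in knockout FA, and its interaction of -1.47 was called in 5 of the 11 fits (-2.13 without ERF wild type 2iL replicate 1) and not by limma voom. Among 11 mesoderm and endoderm genes, Gsc, a homeobox factor, was positive (1.95) and Eomes, a T-box factor, negative (-1.18), and the third call, Foxa2 (-3.49), is an endoderm factor. Of these, Gsc and Foxa2 kept the call in 8 fits each, and Eomes in 10 (-0.995 without ERF wild type FA replicate 2). Gsc was 1.72 and Foxa2 -3.03 without ERF wild type FA replicate 1, neither called, and Foxa2 was -2.74 without ERF knockout 2iL replicate 3, not called. The 12 trophoblast genes gave Gata3 and Tfap2c, an AP-2 factor, positive (Tfap2c 1.24, adjusted p = 0.001, and 0.94 without ERF wild type FA replicate 1). Krt19, a keratin at the floor in wild type 2iL, was called negative, and Cdh6, a cadherin at the floor there, was the call among 6 neural genes. The FA rise of Krt19 was at least 4.16-fold smaller in knockout, or at least 3.14-fold without ERF knockout 2iL replicate 3. Cdh6 rose in wild type to 1.12 and 0.426 CPM and had no called FA change in knockout (-0.42, adjusted p = 0.472), where the ratio of FA to 2iL was at least 7.38-fold lower than in wild type, or at least 4.08-fold lower without ERF wild type FA replicate 1. Both kept the call in 8 fits, and Cdh6 lost it without that library (-2.01, adjusted p = 0.251). None of 15 cadherin and EMT genes or 5 fibroblast genes was called by edgeR, DESeq2 or limma voom, and 3 of each list had an unadjusted p under 0.05 by edgeR. Their extremes were Cldn3 (0.79, adjusted p = 0.121) and Zeb2 (-1.39, adjusted p = 0.289), and Col1a1 (0.99, adjusted p = 0.0776), with Col1a2 at the floor in wild type 2iL.

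Outside the lists, the genes with the largest negative interactions were of 2 kinds. Most resembled Lin28a. Epha1, an ephrin receptor, stood at 0.0465 to 0.14 CPM in wild type 2iL, at 2.02, 1.95 and 2.26 CPM in knockout 2iL and at 10.2 to 16.3 CPM over both lines in FA (interaction -4.36, SE 0.39, adjusted p = 2.83e-07, and -5.07 without ERF wild type 2iL replicate 1). Evc, a protein of the primary cilium, stood at 0.511 to 0.63 CPM in wild type 2iL and lay between 4.42 and 7.45 CPM in the other 8 libraries, with an FA change of 3.40 in wild type and -0.08 (adjusted p = 0.793) in knockout. Its interaction was -3.48 (SE 0.39, adjusted p = 5.67e-06). Adam23, a membrane protein of the ADAM family, stood at 0.465 to 2.31 CPM in wild type 2iL, 22.6 to 32.4 CPM in knockout 2iL and 35.2 to 60.9 CPM in FA (interaction -3.75, and -4.69 without ERF wild type 2iL replicate 1). Col6a5, Fam19a4, Dgkk and Aire also had 2iL levels that were higher in knockout, with interactions of -4.38, -3.97, -3.85 and -3.78. Unlike Lin28a, 3 of them were also lower in knockout FA: Fam19a4 by -1.20 (adjusted p = 0.0395), Col6a5 by -0.86 (adjusted p = 0.0108) and Aire by -0.86 (adjusted p = 0.0263). Dgkk had -0.65 there (adjusted p = 0.187). Fam19a4 rose to 10.3 and 2.79 CPM in wild type FA and had no called FA change in knockout (0.69, adjusted p = 0.125), and its interaction was -2.71 without ERF wild type FA replicate 1 and -4.61 without replicate 2. Col6a5 stood at 63.1 and 30.8 CPM in wild type FA, and its interaction was -3.76 without replicate 1 of that group and -5.14 without ERF wild type 2iL replicate 1. Dgkk was -4.47 without ERF wild type 2iL replicate 3. Car4, a carbonic anhydrase, had 0 counts in wild type 2iL and 2.45, 2.22 and 6.94 CPM in knockout 2iL, and its FA rise was at least 37-fold smaller in knockout (adjusted p = 0.00937), or at least 22.3-fold without ERF knockout 2iL replicate 3. Clic5 differed in the same way by at least 12.9-fold, or at least 7.53-fold without that library, with 0.577, 1.03 and 2.52 CPM in knockout 2iL. limma voom did not call Aire or Car4, and the log2 interaction of Car4 had an adjusted p = 0.0867 by edgeR with a replicate block within each ERF line.

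H19 was of the other kind. This imprinted noncoding RNA, which is made from the maternal allele, stood at 0.179 to 0.465 CPM in wild type 2iL and rose to 126 and 98.2 CPM in wild type FA. In knockout cells it stood at 0.625, 1.08 and 2.05 CPM in 2iL and at 3.75, 7.64 and 3.39 CPM in FA. The ERF difference was -4.51 in FA (adjusted p = 2.19e-05) and 2.10 in 2iL (adjusted p = 0.151), and the interaction of -6.62 (SE 1.1, adjusted p = 0.00117) was the largest negative among genes named by rank. Tinagl1, a secreted matrix protein, was its counterpart among the positive genes. It stood at 29.1, 19.6 and 16.6 CPM in wild type 2iL, 1.08 and 1.66 CPM in wild type FA, 7.06, 12.4 and 17.6 CPM in knockout 2iL and 12.9, 16.3 and 27.7 CPM in knockout FA. Wild type FA alone was low (interaction 4.65, SE 0.81, adjusted p = 0.00164). Trh, the thyrotropin-releasing hormone, stood at 0.0465 to 0.175 CPM in wild type 2iL, at 9.75 and 2.75 CPM in wild type FA, and at 1.65 to 3.21 CPM in all knockout libraries (interaction -5.93, SE 0.84, adjusted p = 0.000146, and -4.72 without ERF wild type FA replicate 1 and -6.56 without replicate 2). Its ERF difference was 4.52 in 2iL (adjusted p = 6.51e-05) and -1.41 in FA (adjusted p = 0.059), so Trh was not of the kind of H19.

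The size of the FA change was compared over a set of genes chosen in other libraries. The set is a part of the FA response, since it leaves out genes whose FA change was not called after RAS deletion. The set held the genes called for medium in the same direction in both lines after RAS deletion, 1283 rising and 768 falling, in the 12 libraries treated with 4-hydroxytamoxifen. On the log2(CPM + 1) scale, each FA library was compared with the mean of its line's 2iL libraries. The rising genes changed on average by 1.26 and 1.27 in the 2 wild type libraries and by 1.07, 1.02 and 1.08 in the 3 knockout libraries. The falling genes changed by -1.37 and -1.28 in wild type and by -0.99, -0.93 and -1.02 in knockout. The knockout change was the smaller in all 3 libraries for both sets, with a difference of -0.21 for the rising and 0.35 for the falling genes, beyond the pooled SD of 0.02 and 0.05. The size depended on the scale and the choice of genes: the differences were -0.372 and 0.544 with a pseudocount of 0.1 in place of 1, and -0.12 and 0.16 with genes chosen without a fold minimum. With 2 libraries against 3 the exact two-sided permutation test cannot go below p = 0.1, which both sets gave. It therefore cannot decide whether the lines differ. Both the test and the pooled SD cover the spread of FA libraries alone and leave out that of the 2iL libraries. In levels, the rising set stood at 1.32 to 1.35 in wild type 2iL and 1.45 to 1.46 in knockout 2iL, and at 2.6 and 2.48 to 2.53 in FA. The falling set stood at 2.94 to 3.06 and 2.76 to 2.77 in 2iL, and at 1.61 and 1.7 against 1.74 to 1.83 in FA. On both sets the knockout libraries thus lay toward the FA level of wild type cells in 2iL, and toward their 2iL level in FA.

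The 12 RAS-deleted libraries, which come from the same lines but share no library with the interaction, allowed the 2iL differences of the called genes to be measured again. The drug and the deletion cannot be told apart there. Of the 453 positive genes, 425 had an ERF difference in 2iL of the same sign as with RAS present, with a median of -1.29, and 277 (61.1%) were called lower in knockout, against 7.15% of all tested genes. Of the 417 negative genes, 388 had the same sign, with a median of 1.55, and 268 (64.3%) were called higher, against 5.83% of all. In FA the RAS-deleted lines still differed in those directions, with medians of -0.91 and 1.06, where the RAS-present lines had 0.41 and -0.16. The interaction itself had a median of 0.38 after RAS deletion for the positive and -0.46 for the negative genes. The genes were chosen for a large interaction with RAS present (medians 1.63 and -1.83), so no order of size can be read from these values. After deletion it was called with the same sign in 121 positive and 116 negative genes and with the opposite sign in 45 and 31, where it was called in 11.3% of all tested genes (5.59% positive, 5.74% negative).

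The difference between the 2 interactions, a 3-way contrast of medium, ERF and RAS, was tested directly and was called in 1947 genes (9.56%; 5.3% positive, 4.26% negative). It was called in the direction of the RAS-present interaction in 203 positive and 164 negative genes, and in the opposite direction in 6 of each. It shares the 11 libraries with the rule that chose these genes, so these counts are a description. Spry2 and Spred1 changed sign between RAS states, with RAS-deleted interactions of 1.74 (adjusted p = 3.13e-06) and 1.39 (adjusted p = 2.92e-08). Spry4 did not (-3.83 after deletion, adjusted p = 2.8e-05), and neither did H19 (-7.05, adjusted p = 0.00383) or Utf1 (-1.12, adjusted p = 1.08e-05). For Cyr61, Ctgf and Plk2 the RAS-deleted interaction was 0.13, 0.05 and -0.05, none called, and for Dab2 and Pdgfra it was 0.09 and -0.03, none called. Dppa3 kept its sign (1.46, adjusted p = 0.0094), but the naive pluripotency list as a whole had a median of -2.02 after deletion against 0.28 with RAS present, and 16 of its 18 genes were called for the 3-way contrast.

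**Figure D5:**
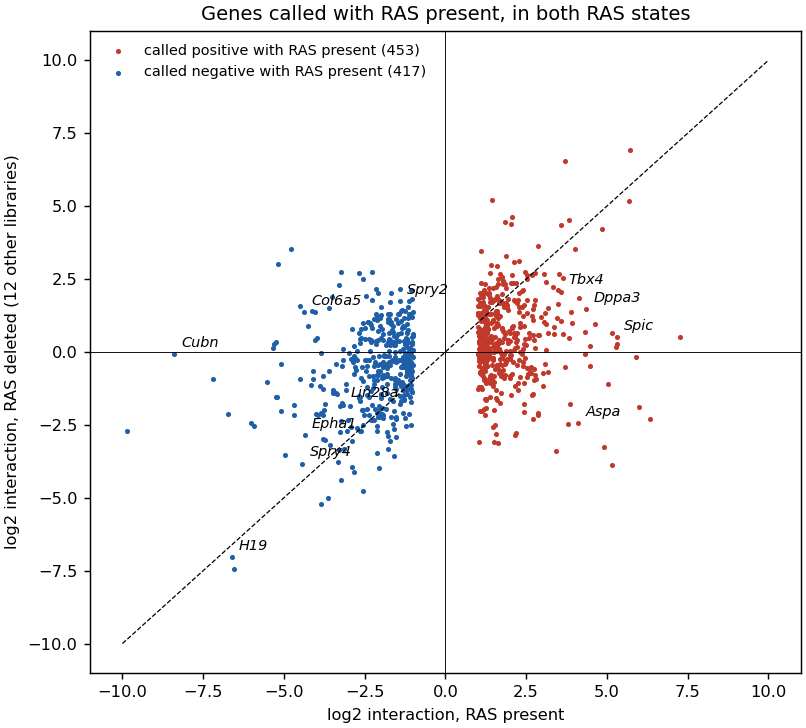
Log2 interaction of the 870 called genes with RAS present (horizontal axis) and in the 12 RAS-deleted libraries (vertical axis); the dashed line marks equal values. No gene lies between -1 and 1 on the horizontal axis because of the 2-fold minimum that chose these genes, and H19 and Spry4 lie close to the dashed line.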

How the data were processed

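RNA of 23 mouse embryonic stem cell libraries was sequenced as rRNA-depleted, strand-specific 75 bp pairs, per the labels' protocols. The submitters' processing notes name bcl2fastq 2.20.0, fastp 0.20.0, Salmon and mm10, with no Salmon version. The authors deposited estimated counts per gene and library in Salmon's columns and a table of counts whose cells equal the rounded estimated counts (0 cells differed by more than 0.5). Neither is normalized. Salmon shares reads among similar transcripts, so counts of close paralogs such as Lin28a and Lin28b, or of overlapping genes, are less certain.

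The counts were fitted with edgeR 4.0.16 (R 4.3.3) as 1 model over the 23 libraries (1 coefficient for each group), filterByExpr, TMM scaling and a robust quasi-likelihood test. Of 53607 gene rows 20372 were tested. A call needs a Benjamini-Hochberg adjusted p under 0.05 over all tested genes and at least a 2-fold difference. Standard errors are the absolute log2 value divided by the square root of F. The floor is 3 counts per library, and a fold against a group that never exceeds it is given as a lower bound. The bound takes the other groups at their means. The script was tested on simulated data. Replicates differed by more than sampling noise in all 10 pairs (chi-square per degree of freedom 3.7 to 22.4 over genes with at least 20 counts).

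Named genes are Erf, Hras and Nras, called members of 18 lists (in a list with no call, its extremes), and the 10 largest interactions in each direction, by fitted value, among genes called in every fit that left out 1 of 11 libraries, with a group mean of at least 5 CPM and no group at the floor, plus up to 3 in each direction by bound. Predicted genes were passed over. The uncalled members given beside the calls of a list were chosen as well-known genes, after their values were seen. The comparison and the lists were chosen with earlier results of these data known. The remaining RAS gene is not named. Promoters came from RefSeq (GRCm38.p6), which had entries for 12852 of the tested genes. Alternatives were DESeq2 1.42.0, its size factors, limma voom (limma 3.58.1), no count filter, the 11 libraries alone, effective length as an offset, no Gm26917, no fold minimum, a replicate block, chromosome 8 left out, and each library left out. Leaving out both replicate 1 libraries of a line, or chromosomes 8 and 11, and a replicate block within each ERF line were chosen after seeing the data.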

Additional observations from a re-analysis of the deposited data

Results flagged for a closer look

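Each interaction below differed between RAS states by the 3-way contrast of the same edgeR fit (adjusted p under 0.05), which is what brings it here. Values are the log2 interaction with RAS present minus that after RAS deletion. Over all genes tested, 1947 were called for this contrast at 2-fold or more. No cause was tested, and 4-hydroxytamoxifen was given to every RAS-deleted library and to none of the others.

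A positive difference means a more positive interaction with RAS than after its deletion, whichever of the groups differ. Of the genes high in wild type 2iL it was 4.79 for Spic, 2.91 for Dppa3, 4.39 for Fbln5, 6.55 for Aspa, 3.01 for Ceacam10 and 2.54 for Wnt7b. For Tinagl1, which was low in wild type FA alone, it was 3.70. Of the YAP and TEAD targets it was 2.65 for Cyr61, 1.66 for Ctgf and 1.08 for Amotl1. Of the p53 targets it was 3.18 for Fas, 1.78 for Plk2 and 1.25 for Cdkn1a. It was 4.14 for Gadd45b and 3.12 for Bcl3, both of the LIF and STAT3 list, and 2.89 for Tfap2c, 2.64 for Dazl, 2.21 for Fos and 2.72 for Elf3.

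The difference was negative for Spry2 (-3.15) and Spred1 (-2.40), while for Spry4, another feedback inhibitor of ERK signalling, it was -0.60 and not called (adjusted p = 0.646). Of the formative and primed genes it was -3.19 for Lin28b, -2.80 for Pim2 and -1.53 for Sox3. It was -2.69 for Gbx2 of the naive list, -2.48 for Lefty1 of the Nodal and Activin list and -1.87 for Eomes of the mesoderm and endoderm list. Among primitive endoderm genes it was -3.25 for Dab2, -2.96 for Pdgfra and -1.68 for Lamb1, whose spread between replicates is given with the list. It was -1.57 for Col1a1, -2.08 for Evc, -3.81 for Dgkk, -4.46 for Fam19a4 and -5.75 for Col6a5. For Clic5 (-6.07) and Col1a2 (-4.78) at least 1 of the 8 groups was at the floor of 3 counts per library, so the fitted value is no measure of size. The groups of 2 or 3 libraries were too small for a test of outlying libraries.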

How the results depend on the processing

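None of the 870 interaction calls with RAS present reversed under any alternative. The alternatives share most or all of the libraries, so a reversal was unlikely from the start. With each of the 11 libraries left out in turn, there were 577 to 1029 interaction calls and 272 to 586 positive calls, the lowest without ERF wild type FA replicate 1 (54.5% of the 870 calls kept) and the highest without replicate 2 of that group. Without both ERF wild type replicate 1 libraries there were 294 positive calls. With no fold minimum there were 1902 calls (992 positive, 910 negative), and 3362 for the 3-way contrast (1801 positive, 1561 negative). The FA response difference between lines was -0.372 (rising genes) and 0.544 (falling genes) with a pseudocount of 0.1, and -0.12 and 0.16 with genes chosen without a fold minimum, the same direction each time. The causes were not tested. Calls numbered 869 with DESeq2's size factors, 860 with DESeq2, 787 with limma voom, 1192 without a count filter, 806 in the 11 libraries alone, 640 with effective length as an offset (66.8% kept), 848 without chromosome 8 and 798 without chromosomes 8 and 11. Libraries with equal replicate numbers deviated together in 3 of 3 pairs of ERF knockout (2iL with FA, correlation 0.15 to 0.27), but not in the 2 of ERF wild type (-0.065 and 0.0042) nor throughout the 10 pairs across lines (-0.063 to 0.17). A replicate block over all groups gave 780 calls (77.5% of the 870 kept), and a replicate block within each ERF line, chosen after seeing the data, gave 689 (66.6% kept). Of 1747 results for single named genes 167 lost the call, 9 gained it and 1571 stayed. Wild type FA has 2 libraries, which limits every estimate, and genes with a group at or under 3 counts in every library allow at most a bound. Other groups lay just above this floor. In wild type 2iL Epha1 and Dgkk had 1 to 4 counts, Aire and Sox7 3 to 4 and Trh 1 to 5. The size of their fitted interactions is therefore uncertain.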
